A study of Mus musculus with 12 samples.

Results

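Expression of 10 circadian clock genes, Per1, Per2, Per3, Cry1, Cry2, Dbp, Nr1d1, Nr1d2, Clock and Bhlhe41, was compared in the hypothalamus of adult mice after exposure to aspartame, to an NMDA receptor antagonist in early life, or to both. The genes are a list of names, which sets no threshold on any measured value, and each was read from its own probe set, so that 10 of 10 were measured among 17186 genes. All 10 had a log2 signal of at least 6 on all 12 arrays. The arrays were Affymetrix Mouse Gene ST arrays of the hypothalamus of male C57Bl/6J mice aged 21 weeks, 3 for each of 4 groups. ASP+CGP mice received aspartame, a non-nutritive sweetener, in the drinking water from conception onwards at 46 mg/kg together with CGP 39551, a competitive antagonist of the NMDA receptor, which was given at 5 mg/kg through the water of their mothers until postnatal day 28. ASP mice received the aspartame alone and CGP mice the antagonist alone, and CON mice neither.

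Before hybridization, equal amounts of RNA from all mice in a group were mixed into 1 pool, and the 3 arrays of the group are repeats of it. The p-values therefore measure only the spread between arrays, and any other difference between the mice of the pools cannot be told apart from the treatment. Mice were fasted overnight and killed under xylazine and ketamine. The hour of killing is not given in the sources used here, and each pool holds the RNA of mice at the stage of the cycle at which they were killed. In a piece of tissue of many cell types, fewer cells of a type and less RNA per cell cannot be told apart.

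The mammalian clock is a loop of transcription and repression that runs in most cells and takes about a day to complete. CLOCK and its partner BMAL1, the product of Arntl, bind E-box elements and switch on the Per and Cry genes, whose proteins return to the nucleus and repress them. Further loops pass through the REV-ERB receptors (Nr1d1, Nr1d2), which repress Arntl, the ROR receptors, which activate it, and the output factor DBP, which acts at D-box elements. In the hypothalamus the suprachiasmatic nucleus holds the master pacemaker, which light sets through glutamate and NMDA receptors, with Per1 and Per2 as the genes that respond first.

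These elements were looked for in the RefSeq promoter windows of GRCm38.p6, 250 bases before to 50 bases after an annotated start of the gene. The windows used were 12 of 9 clock genes, all but Per2. The sequences below show the places where the E-box CACGTG and the D-box TTATGTAA stood, since they carry the connections of the loop that links these genes. Capitals mark the element, and each sequence runs 5′ to 3′ on the strand of its gene.
Per1, E-box with its first base 166 bases before the start, chr11:69098765-69098806, plus strand: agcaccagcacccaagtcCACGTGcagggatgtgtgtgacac
Cry1, E-box 60 bases before the start, chr10:85185091-85185132, minus strand: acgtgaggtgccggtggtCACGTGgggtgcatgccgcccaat
Bhlhe41, E-box 153 bases before the start, chr6:145865550-145865591, minus strand: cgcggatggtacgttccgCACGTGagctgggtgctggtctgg
Per3, D-box 205 bases before the start, chr4:151044845-151044888, minus strand: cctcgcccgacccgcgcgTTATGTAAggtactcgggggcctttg
Per3, D-box 158 bases before the start, chr4:151044798-151044841, minus strand: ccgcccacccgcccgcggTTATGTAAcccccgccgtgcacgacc

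CACGTG, which reads the same on both strands, was present in 3 of the 12 windows and in 7.15% of 32851 windows of all genes. TTATGTAA, searched on both strands, was present in 1 of the 12 windows, where it stood at 2 places, and in 0.938% of all windows. The variant E-box CACGTT was found on 1 strand or the other in the windows of Cry1, Cry2 and Nr1d1 (4.685% of all windows), and the core site AGGTCA of nuclear receptors in those of Per1, Nr1d2 and Clock (16.255% of all windows). The cAMP response element TGACGTCA had no match in the 12 windows, against 1.79% of all windows. A match describes the letters of the window and does not show binding.

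None of the 10 clock genes passed the test in any comparison of the pools. In limma, 0 of 10 had a Benjamini-Hochberg adjusted p under 0.05 in ASP vs CON, against 4.08% of all 17186 genes. The count was 0 of 10 in CGP vs CON (0.628% of all genes), 0 of 10 in ASP+CGP vs CON (1.75% of all genes) and 0 of 10 in ASP+CGP vs ASP (6.92% of all genes). The interaction, which asks whether the difference between ASP+CGP and CGP is that between ASP and CON, gave 0 of 10 (4.01% of all genes), and a moderated F test for any difference among the 4 pools also gave 0 of 10 (6.69% of all genes), with adjusted p between 0.147 for Per3 and 0.57 for Cry2. At an unadjusted p under 0.05 there were 2 clock genes in ASP vs CON, 1 in CGP vs CON, 4 in ASP+CGP vs CON, 3 in ASP+CGP vs ASP and 1 in the interaction. Among all genes, 16.9%, 11.6%, 15.4%, 21.1% and 17.9% had such a p in these comparisons, in the same order.

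Over 10 genes and 4 comparisons, the largest fold change was 1.15 (Dbp, ASP vs CON), and all 40 of the 95% intervals lay within 1.4-fold in either direction, the threshold the study set for a differentially expressed gene. Of these intervals 35 lay within 1.2-fold. The bound farthest from no change was 1.33-fold, again for Dbp in ASP vs CON. The interaction, a difference of 2 differences, was less precise, and its interval for Dbp reached 1.43-fold. The median log2 fold change of the 10 genes was 0.0015 in ASP vs CON, 0.0078 in CGP vs CON, −0.05 in ASP+CGP vs CON and −0.03 in ASP+CGP vs ASP, while that of all genes was −0.01, 0.01, −0.0043 and 0.01.

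**Figure D1:**
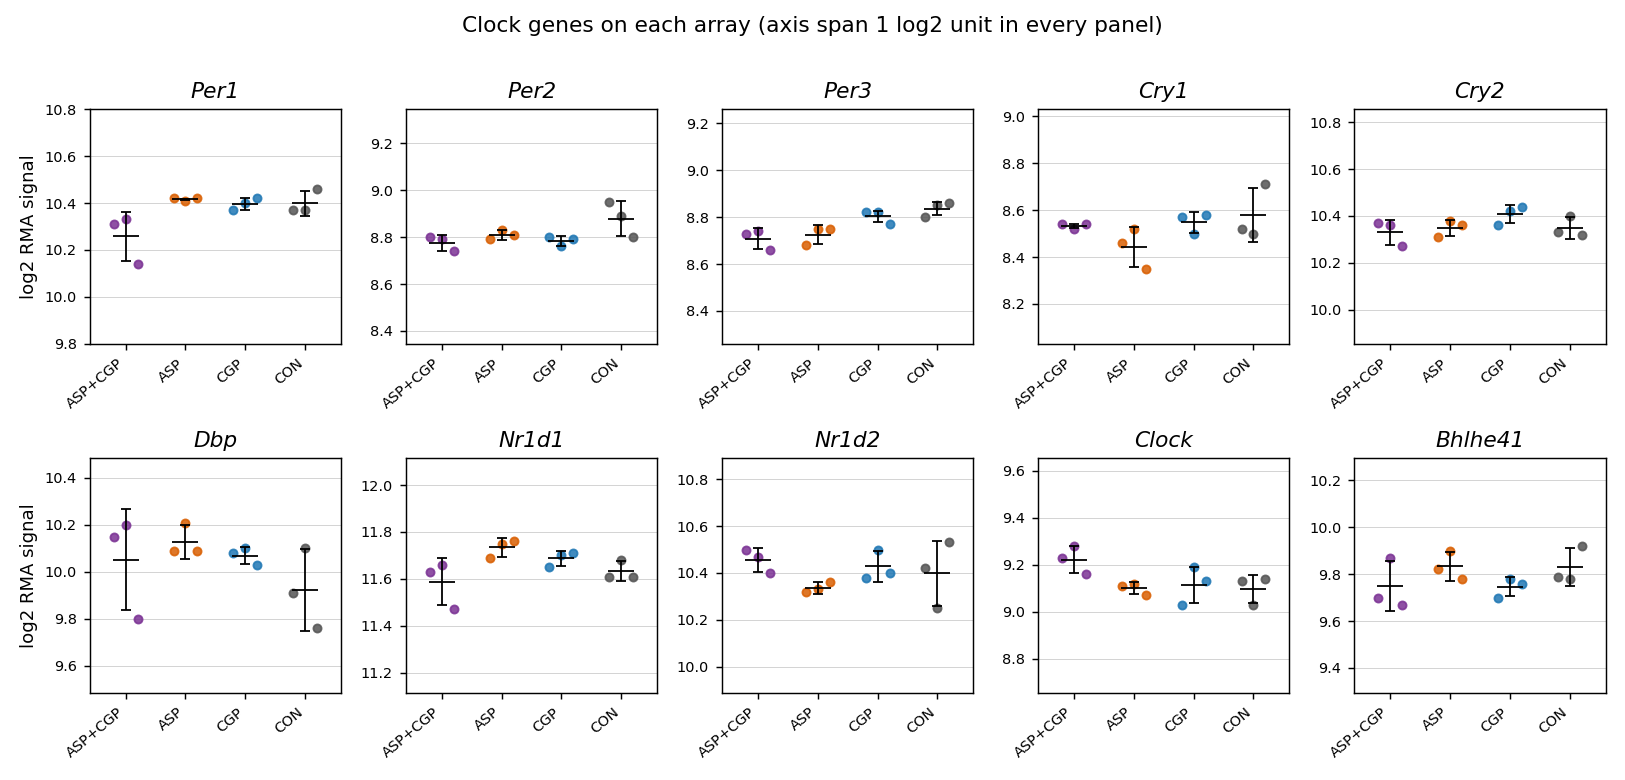
Log2 RMA signal (vertical axis, 1 log2 unit high in each panel) of the 10 clock genes on each array of the ASP+CGP, ASP, CGP and CON pools. Points are the 3 arrays of a pool in the order of their numbers and black bars give mean and SD; the widest spread is that of Dbp in ASP+CGP and CON, where the third arrays lie at 9.80 and 9.76.

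Per1 is the Period gene that light and stress hormones induce most quickly. On the deposited log2 scale it had 10.31, 10.33 and 10.14 on the 3 arrays of ASP+CGP, 10.42, 10.41 and 10.42 on those of ASP, 10.37, 10.40 and 10.42 in CGP, and 10.37, 10.37 and 10.46 in CON. All ASP+CGP arrays lay below all ASP and all CON arrays, with the lowest value on the third. The mean was 10.26 ± 0.11 in ASP+CGP, against 10.42 ± 0.0021 in ASP and 10.40 ± 0.05 in CON (SD, n = 3 arrays each). Its log2 fold change was −0.16 ± 0.05 in ASP+CGP vs ASP (SE, limma, adjusted p = 0.0865), the lowest adjusted p of any clock gene, and −0.14 ± 0.05 in ASP+CGP vs CON (adjusted p = 0.211). Without the third ASP+CGP array these differences were −0.10 (adjusted p = 0.218) and −0.08 (adjusted p = 0.347).

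Per2, whose protein joins PER1 in the repressor complex, had 8.80, 8.79 and 8.74 in ASP+CGP, 8.79, 8.83 and 8.81 in ASP, 8.80, 8.76 and 8.79 in CGP, and 8.95, 8.89 and 8.80 in CON. The first and the second CON arrays were the highest of all, and the third lay among the other pools. The log2 fold change was −0.10 ± 0.04 in ASP+CGP vs CON (limma, adjusted p = 0.28), −0.07 ± 0.04 in ASP vs CON (adjusted p = 0.468) and −0.10 ± 0.04 in CGP vs CON (adjusted p = 0.426). Without the third CON array the difference of Per2 in limma was −0.15 in ASP+CGP vs CON (adjusted p = 0.0844). It was −0.11 in ASP vs CON (adjusted p = 0.232) and −0.14 in CGP vs CON (adjusted p = 0.18). With all arrays it was −0.04 ± 0.04 between ASP+CGP and ASP.

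Per3, the Period gene that the loop needs least, had 8.73, 8.74 and 8.66 in ASP+CGP, 8.68, 8.75 and 8.75 in ASP, 8.82, 8.82 and 8.77 in CGP, and 8.80, 8.85 and 8.86 in CON. The means of ASP and ASP+CGP lay below those of CGP and CON. No array of ASP or of ASP+CGP overlapped the CON arrays (23.9% and 17.3% of all genes). Per3 had a log2 fold change of −0.13 ± 0.04 in ASP+CGP vs CON (limma, adjusted p = 0.15) and −0.11 ± 0.04 in ASP vs CON (adjusted p = 0.179). In CGP vs CON it was −0.03 ± 0.04, and the interaction was 0.02 ± 0.06 (adjusted p = 0.909). Its arrays agreed closely, with an SD within pools of 0.0357, lower than that of all but 6.37% of the genes.

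Cry1, the cryptochrome whose protein is the strongest repressor of CLOCK and BMAL1, had 8.54, 8.52 and 8.54 in ASP+CGP, 8.46, 8.52 and 8.35 in ASP, 8.57, 8.50 and 8.58 in CGP, and 8.52, 8.50 and 8.71 in CON. The ASP and CON pools overlapped, since the second ASP array stood level with the lower CON arrays. In ASP vs CON its log2 fold change was −0.14 ± 0.06 (limma, adjusted p = 0.259), and it was −0.07 without the third CON array (adjusted p = 0.609). Cry2, its paralog, had pool means of 10.33 ± 0.05 in ASP+CGP, 10.35 ± 0.03 in ASP, 10.41 ± 0.04 in CGP and 10.35 ± 0.05 in CON, with single arrays between 10.27 and 10.44. These means spanned 0.0774 log2 units, the narrowest span of the 10 genes.

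Nr1d1, which encodes REV-ERBα, had 11.63, 11.66 and 11.47 in ASP+CGP, 11.69, 11.75 and 11.76 in ASP, 11.65, 11.70 and 11.71 in CGP, and 11.61, 11.68 and 11.61 in CON. All ASP arrays lay above all CON and all ASP+CGP arrays. The log2 fold change was 0.10 ± 0.05 in ASP vs CON (limma, adjusted p = 0.352) and −0.15 ± 0.05 in ASP+CGP vs ASP (adjusted p = 0.114). Its interaction, −0.20 ± 0.07, had an unadjusted p of 0.0165 and an adjusted p of 0.167. As for Per1, the lowest array was the third of ASP+CGP, and without it the difference between ASP+CGP and ASP was −0.09 (adjusted p = 0.291).

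Nr1d2, which encodes REV-ERBβ, had 10.50, 10.47 and 10.40 in ASP+CGP, 10.32, 10.33 and 10.36 in ASP, 10.38, 10.50 and 10.40 in CGP, and 10.42, 10.25 and 10.53 in CON. The ASP+CGP arrays lay above the ASP arrays, and the CON arrays spread over a wider range than any other pool. Between ASP+CGP and ASP the log2 fold change of Nr1d2 was 0.12 ± 0.06 (limma, adjusted p = 0.297), and the order of the pools, ASP lowest, was not that of Nr1d1, for which ASP was highest.

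Dbp encodes an activator that binds D-boxes and carries the rhythm of the loop to its target genes. It had 10.15, 10.20 and 9.80 in ASP+CGP, 10.09, 10.21 and 10.09 in ASP, 10.08, 10.10 and 10.03 in CGP, and 9.91, 10.10 and 9.76 in CON. The third arrays of ASP+CGP and of CON were the lowest of all 12, and each pool overlapped the others. The mean was 10.05 ± 0.22 in ASP+CGP, 10.13 ± 0.07 in ASP, 10.07 ± 0.04 in CGP and 9.92 ± 0.17 in CON (SD, n = 3 arrays each). The log2 fold change was 0.20 ± 0.10 in ASP vs CON (limma, adjusted p = 0.307), 0.15 ± 0.10 in CGP vs CON (adjusted p = 0.585) and 0.13 ± 0.10 in ASP+CGP vs CON (adjusted p = 0.573). Its SD within pools, 0.144, was higher than that of 96.5% of genes, and without the third arrays of both CON and ASP+CGP the difference between ASP and CON was 0.12 (adjusted p = 0.29). Without the third CON array alone, Dbp differed by 0.06 in CGP vs CON and by 0.05 in ASP+CGP vs CON. Without the third ASP+CGP array alone, the difference in ASP+CGP vs CON was 0.25 (adjusted p = 0.125).

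Clock itself, the activator of the loop, had 9.23, 9.28 and 9.16 in ASP+CGP, 9.11, 9.12 and 9.07 in ASP, 9.03, 9.19 and 9.13 in CGP, and 9.13, 9.03 and 9.14 in CON. All ASP+CGP arrays lay above all ASP and all CON arrays. The log2 fold change was 0.12 ± 0.05 in ASP+CGP vs CON (limma, adjusted p = 0.259) and also 0.12 ± 0.05 in ASP+CGP vs ASP (adjusted p = 0.186), whereas it was 0.0035 ± 0.05 in ASP vs CON and 0.02 ± 0.05 in CGP vs CON. Bhlhe41 (DEC2), a repressor that competes for E-boxes, had pool means of 9.75 ± 0.11 in ASP+CGP, 9.83 ± 0.06 in ASP, 9.75 ± 0.04 in CGP and 9.83 ± 0.08 in CON. Its single arrays ran between 9.67 and 9.92, and the CGP arrays did not exceed the lowest CON array.

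**Figure D2:**
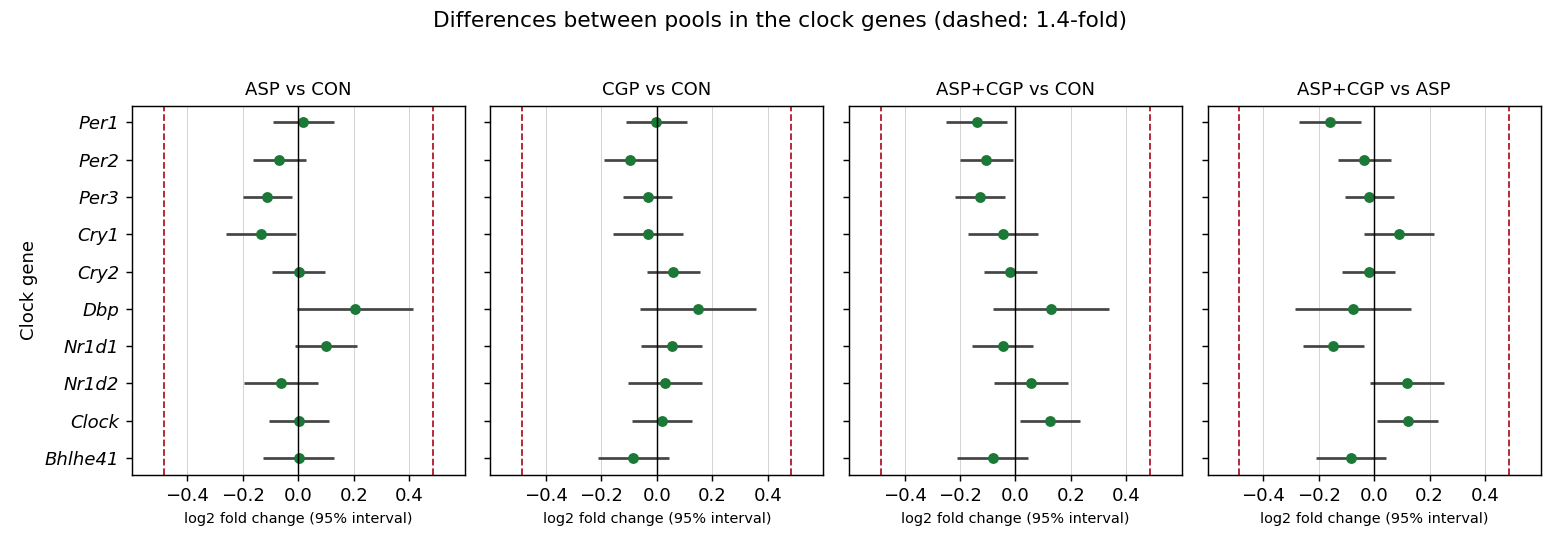
Log2 fold change (horizontal axis) of each clock gene in the 4 comparisons, as the fitted value with its 95% interval from limma. Dashed lines mark 1.4-fold in either direction; all 40 intervals lie between them.

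The arrays of the pools compared did not overlap for 2 of 10 clock genes in ASP vs CON (23.9% of all genes), 1 of 10 in CGP vs CON (19.4%), 4 of 10 in ASP+CGP vs CON (17.3%) and 5 of 10 in ASP+CGP vs ASP (27% of all genes). In ASP vs CON, Nr1d1 was the 1 gene with all ASP arrays above CON (9.93% of all genes) and Per3 the 1 gene with all below (13.9% of all genes). In CGP vs CON, 0 clock genes had all CGP arrays above CON (12% of all genes) and 1, Bhlhe41, had all below (7.39% of all genes). In ASP+CGP vs CON, Clock was above (7.15% of all genes), and Per1, Per2 and Per3, 3 of 10 genes, were below (10.2% of all genes). In ASP+CGP vs ASP, Cry1, Nr1d2 and Clock, 3 of 10, were above (14.6% of all genes), and Per1 and Nr1d1, 2 of 10, were below (12.3% of all genes). For Per2 in ASP+CGP vs CON, Bhlhe41 in CGP vs CON, Cry1 in ASP+CGP vs ASP and Nr1d1 in ASP vs CON the gap between the nearest arrays was smaller than the rounding of the printed signals.

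The order of the pool means differed from gene to gene. ASP+CGP was the lowest pool for Per1, Per2, Per3, Cry2 and Nr1d1 and the highest for Nr1d2 and Clock, ASP was the highest for Per1, Dbp, Nr1d1 and Bhlhe41, and CON was the highest for Per2, Per3 and Cry1. The range of the pool means had a median of 0.126 log2 units over the 10 clock genes and of 0.117 over all genes, and the SD within pools had a median of 0.0605 against 0.0702. Since none of the 10 genes passed the F test, these orders are descriptions, and no neighbours in them were called different.

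The third ASP+CGP array stood apart from the other arrays of its pool, with 9 of 10 clock genes below the mean of the pool and a root mean square deviation of 0.105 log2 units. On the third CON array it was 0.0912 and on the second 0.0859, whereas the 3 ASP arrays had 0.0293 to 0.044 and the 3 CGP arrays 0.026 to 0.04. Over all genes the third ASP+CGP array (SD of deviations 0.0996) and the third CON array (0.0903) were likewise the most distant from their pools. No clock gene passed the test with any single array, or both of these, left out.

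**Figure D3:**
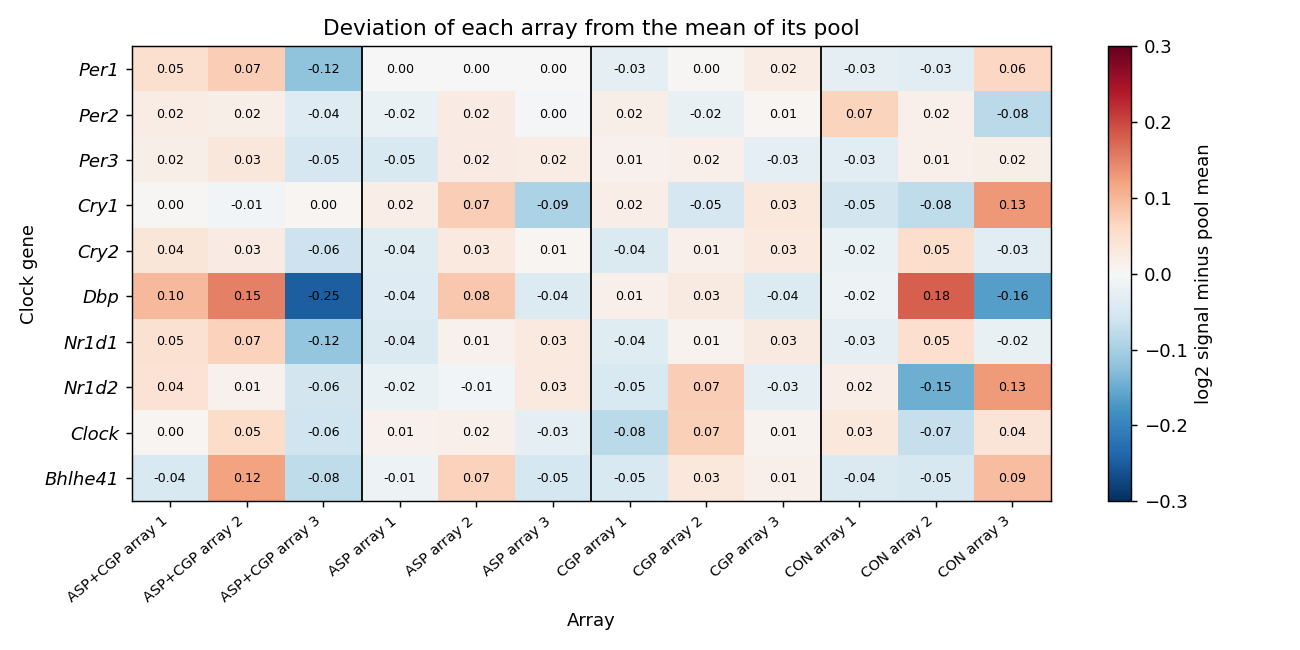
Log2 signal of each clock gene on each array minus the mean of its pool, with the arrays of ASP+CGP, ASP, CGP and CON along the horizontal axis. Blue is below and red above the pool mean; the third ASP+CGP array is blue for 9 of 10 genes, with its largest deviation for Dbp.

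Across the 12 arrays, which share 4 pools, Per1 and Nr1d1 varied together (Pearson r = 0.775), as did Nr1d2 and Clock (r = 0.697), Cry2 and Nr1d1 (r = 0.696) and Dbp and Nr1d1 (r = 0.689). Dbp and Cry1 ran opposite to each other (r = −0.511), and Per1 and Per2 had r = 0.279. The genes outside the lists used here with the pattern most like that of Dbp were Dusp7 (r = 0.968), Rims3 (r = 0.967), Gtf2h4 (r = 0.961), Snx12 (r = 0.959) and Clip3 (r = 0.953). These are descriptions over arrays of the same pools, and the third arrays of ASP+CGP and CON enter all of them.

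Among other genes of the clock, those of the positive arm and its loops included both receptors of the ROR family that were measured. In this list, 5 of 7 genes were measured. In limma 1 was higher in CGP vs CON (0.489% of all genes), 1 in ASP+CGP vs CON (0.826% of all genes), 1 in ASP+CGP vs ASP (2.67% of all genes) and 0 in ASP vs CON (2.92% of all genes), and none was lower (0.14%, 0.919%, 4.25% and 1.16% of all genes). Of the 5 genes, 4 had an unadjusted p under 0.05 in ASP vs CON, as did 16.9% of all genes. Rora had 10.45, 10.40 and 10.42 in ASP+CGP, 10.29, 10.31 and 10.26 in ASP, 10.48, 10.51 and 10.49 in CGP, and 10.10, 10.12 and 10.21 in CON. All arrays of the other pools exceeded the CON arrays. Rora rose by 0.35 ± 0.04 in CGP vs CON (1.28-fold, limma, adjusted p = 0.000801) and by 0.28 ± 0.04 in ASP+CGP vs CON (adjusted p = 0.00255, but 0.0859 in a fit of these 2 groups alone), and it was 0.15 ± 0.04 higher in ASP vs CON without passing (adjusted p = 0.0696). Without the third CON array the difference of Rora in ASP vs CON was 0.18 and passed (adjusted p = 0.0263).

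Rora was also on the list of thalamus and habenula markers, and those genes were higher in the same pools. Of 9 such genes, Rora included, 8 passed in ASP+CGP vs CON (0.826% of all genes), all upward. Likewise upward, 7 passed in ASP vs CON (2.92% of all genes) and 9 in CGP vs CON (0.489% of all genes). The log2 of their summed signals was 13.16 to 13.20 on the ASP+CGP arrays and 13.05 to 13.07 on the ASP arrays. It was 13.22 to 13.24 on the CGP arrays and 12.79 to 12.84 on the CON arrays, the same order of pools as for Rora. Rora is itself part of this sum, and CON had the lowest mean for each of the other genes too. The list was chosen with earlier results of these data known. The study had already reported Gpr151, Chrnb4 and Lhx9 as raised in CGP, so that these counts are descriptions. The part of neighbouring tissue in the difference of Rora was not tested.

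Rorb, a ROR receptor of the suprachiasmatic nucleus and other sensory areas, had 9.17, 9.15 and 9.12 in ASP+CGP, 8.94, 8.94 and 8.98 in ASP, 9.13, 9.08 and 9.15 in CGP, and 8.88, 9.01 and 9.01 in CON. It rose in ASP+CGP vs ASP (0.19 ± 0.04, limma, adjusted p = 0.0168). This call was lost without the first or the second ASP array or without the first ASP+CGP array (adjusted p = 0.0555, 0.0718 and 0.059). As for Rora, the part of neighbouring tissue in the difference of Rorb was not tested. Arntl, the gene of BMAL1, passed in no comparison, with means of 9.27 ± 0.05 in ASP+CGP, 9.36 ± 0.02 in ASP, 9.28 ± 0.02 in CGP and 9.26 ± 0.05 in CON. In ASP vs CON, where no gene of the list passed, the largest values were those of Nfil3, a repressor at D-boxes (0.17 ± 0.06), and Rora. Nfil3 passed there without the third CON array (0.23, adjusted p = 0.0318).

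Of 7 output and repressor genes, all measured, 1 passed, in ASP+CGP vs ASP (6.92% of all genes), and at an unadjusted p under 0.05 the count was 3 in ASP vs CON, 2 in CGP vs CON, and 1 each in ASP+CGP vs CON and ASP+CGP vs ASP. Ciart, also called Chrono, a repressor of CLOCK and BMAL1, had 10.43, 10.42 and 10.52 in ASP+CGP, 10.26, 10.33 and 10.17 in ASP, 10.37, 10.44 and 10.40 in CGP, and 10.44, 10.35 and 10.53 in CON. It rose by 0.20 ± 0.06 in ASP+CGP vs ASP (limma, adjusted p = 0.0435), and the call was lost in 16 of 24 other settings, with adjusted p = 0.0584 to 0.183 for 9 single arrays left out. Ciart has 2 probe sets, and on the dimmer of them ASP+CGP minus ASP was −0.06, so that the mean of both gave 0.07 (adjusted p = 0.4). Bhlhe40 (DEC1), the partner of Bhlhe41, had 9.59, 9.62 and 9.00 in ASP+CGP, 9.55, 9.57 and 9.60 in ASP, 9.56, 9.47 and 9.50 in CGP, and 9.45, 9.56 and 9.01 in CON. The same 2 arrays that were lowest for Dbp were the lowest here, and its difference of 0.23 ± 0.15 in ASP vs CON did not pass (adjusted p = 0.461) and was 0.07 without the third CON array, nor did that of Ciart (−0.19 ± 0.06, adjusted p = 0.079).

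Hlf, a relative of Dbp, was 0.19 ± 0.06 higher in CGP vs CON (adjusted p = 0.181) and 0.17 ± 0.06 higher in ASP+CGP vs CON (adjusted p = 0.163) without passing in limma. Without the third ASP+CGP array the difference of Hlf in ASP+CGP vs CON was 0.22 and passed (adjusted p = 0.0426). The next values were those of Bhlhe40 in CGP vs CON (0.17 ± 0.15, and 0.0033 without the third CON array) and of Usp2, a clock-controlled protease, in ASP+CGP vs CON (0.08 ± 0.05). In the interaction, Bhlhe40 had −0.34 ± 0.21, Ciart 0.24 ± 0.08 (adjusted p = 0.116), Rora −0.21 ± 0.06 (adjusted p = 0.0606) and Nfil3 −0.20 ± 0.08. Of the kinases and ubiquitin ligases that set the stability of PER and CRY proteins, 7 of 8 were measured and 0 passed in any comparison in limma. At an unadjusted p under 0.05 there were 2 in ASP+CGP vs ASP (21.1% of all genes), 1 in ASP+CGP vs CON (15.4%) and 2 in the interaction (17.9%). In ASP+CGP vs ASP the largest values were those of Fbxl21, a ligase of cryptochromes (0.12 ± 0.05), and Btrc, a ligase of PER proteins (0.10 ± 0.04). In ASP+CGP vs CON they were those of the kinases Csnk2a1 (0.10 ± 0.04) and Csnk1e (0.05 ± 0.06), in ASP vs CON those of Fbxl21 (−0.09 ± 0.05) and Btrc (−0.07 ± 0.04), and in CGP vs CON those of Fbxl21 (−0.08 ± 0.05) and Csnk1e (0.07 ± 0.06). Their interaction was 0.19 ± 0.07 for Fbxl21 (adjusted p = 0.173) and 0.15 ± 0.06 for Btrc (adjusted p = 0.206).

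**Figure D4:**
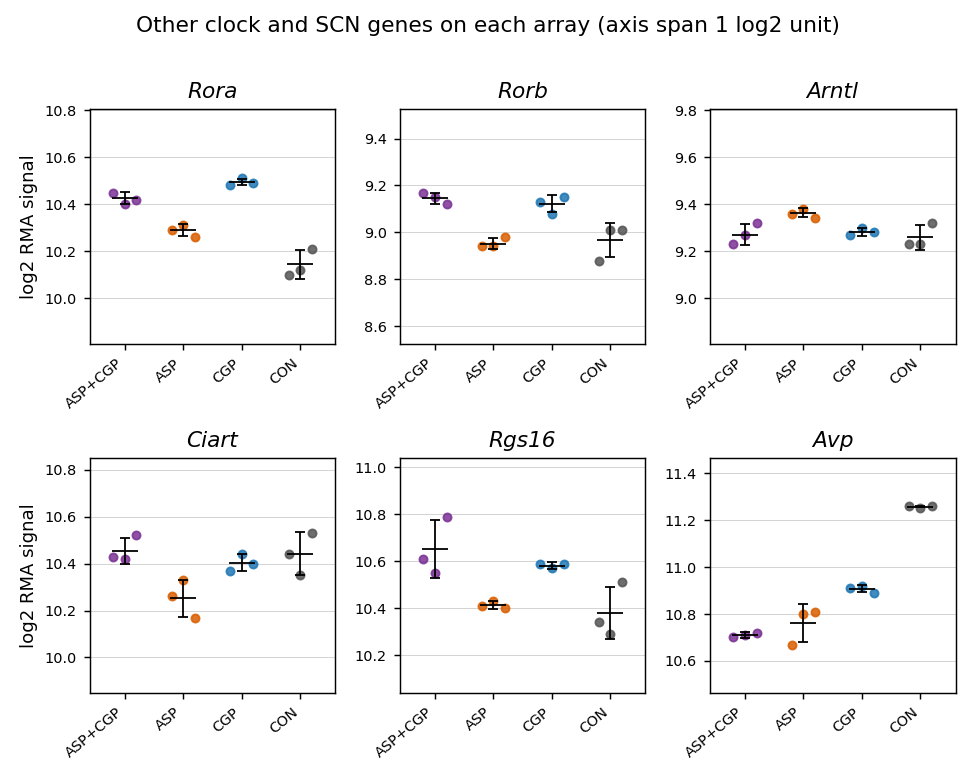
Log2 RMA signal (vertical axis, 1 log2 unit high in each panel) of Rora, Rorb, Arntl, Ciart, Rgs16 and Avp on each array of the ASP+CGP, ASP, CGP and CON pools, with mean and SD as black bars. Avp lies at 11.25 to 11.26 on the CON arrays and below 11 on all others, and Rora is lowest on the CON arrays.

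Of 13 genes that mark the suprachiasmatic nucleus, all were measured. In limma 1 was lower in ASP+CGP vs CON (0.919% of all genes), 1 in ASP vs CON (1.16%) and 1 in CGP vs CON (0.14%). Higher were 1 in ASP+CGP vs CON (0.826% of all genes) and 2 in ASP+CGP vs ASP (2.67%). None was higher in ASP vs CON (2.92%) or CGP vs CON (0.489%), or lower in ASP+CGP vs ASP (4.25%). The log2 of the summed signals of the 13 genes was 13.01 to 13.06 on the ASP+CGP arrays and 12.93 to 13.01 on the ASP arrays. It was 13.06 to 13.08 on the CGP arrays and 13.10 to 13.16 on the CON arrays. Avp, the vasopressin gene, had the highest signal of the 13 in each pool and weighs most in this sum. No other of the 13 passed downward against CON. Their median log2 fold change was −0.05 in ASP+CGP vs CON, −0.04 in ASP vs CON and 0.0019 in CGP vs CON. Avp is a clock-controlled gene of the nucleus that is also expressed in the magnocellular neurons of the hypothalamus. It fell in each pool against CON, by 0.55 ± 0.04 in ASP+CGP, 0.50 ± 0.04 in ASP and 0.35 ± 0.04 in CGP (limma, adjusted p = 1.35e-05, 4.57e-06 and 0.00124). Other peptide genes of the hypothalamus fell in the same pools. Oxt, the oxytocin gene, fell by 0.38 ± 0.05 in ASP+CGP, 0.33 ± 0.05 in ASP and 0.26 ± 0.05 in CGP, and Trh, the gene of thyrotropin-releasing hormone, by 0.30 ± 0.04, 0.24 ± 0.04 and 0.27 ± 0.04. Of 15 measured hypothalamic markers, 4 passed downward in ASP+CGP vs CON (0.919% of all genes). In ASP vs CON 5 passed downward (1.16% of all genes) and 1, Npy, upward (2.92% of all genes). In CGP vs CON 3 passed downward (0.14% of all genes). The log2 of the summed signals of these markers was 14.81 to 14.89 on the ASP+CGP arrays, 14.92 to 14.94 on the ASP arrays, 14.84 to 14.87 on the CGP arrays and 14.99 to 15.15 on the CON arrays. Its part in the difference of Avp was not tested. Rgs16, a regulator of G-protein signalling in the nucleus, rose by 0.27 ± 0.06 in ASP+CGP vs CON (adjusted p = 0.0497) and by 0.24 ± 0.06 in ASP+CGP vs ASP (adjusted p = 0.0379). These calls were lost in 15 of 25 and in 12 of 24 other settings. In ASP+CGP vs CON it was lost without any of 10 single arrays (adjusted p = 0.072 to 0.186) and in ASP+CGP vs ASP without any of 8 (adjusted p = 0.0553 to 0.12). Rgs16 had means of 10.65 in ASP+CGP, 10.41 in ASP, 10.58 in CGP and 10.38 in CON. The summed thalamus and habenula markers were also higher in ASP+CGP and CGP than in ASP and CON. Their part in the differences of Rgs16 was not tested. Syt10 rose in ASP+CGP vs ASP (0.22 ± 0.05, adjusted p = 0.0222), a call lost in 6 of 24 settings, among them leaving out the first or the third ASP array or the second or the third ASP+CGP array (adjusted p = 0.06 to 0.0915). Vip, the peptide of the cells that receive light, had −0.24 ± 0.07 in CGP vs CON (adjusted p = 0.181).

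Per1 shares inducers with immediate early genes and with genes that respond to glucocorticoids, and both lists were counted beside it. Of 11 immediate early genes, 4 fell (4.25% of all genes) and none rose in ASP+CGP vs ASP, and 4 rose (2.92% of all genes) and none fell in ASP vs CON. Nr4a1, an orphan nuclear receptor, had 10.19, 10.15 and 9.93 in ASP+CGP, 10.58, 10.77 and 10.77 in ASP, 10.37, 10.38 and 10.38 in CGP, and 10.24, 10.31 and 10.04 in CON. It rose by 0.51 ± 0.08 in ASP vs CON, as did Btg2 (0.30 ± 0.05), Egr1 (0.26 ± 0.05) and Fos (0.21 ± 0.05), and in ASP+CGP vs ASP these genes fell by 0.61 ± 0.08, 0.46 ± 0.05, 0.24 ± 0.05 and 0.27 ± 0.05. Per1 itself differed by 0.02 ± 0.05 in ASP vs CON. None of the 11 passed in CGP vs CON or in ASP+CGP vs CON, with 3 and 2 at an unadjusted p under 0.05 (11.6% and 15.4% of all genes). The largest values there were those of Dusp1 (0.36 ± 0.19) and Ier2 (0.20 ± 0.06) in CGP vs CON and of Btg2 (−0.16 ± 0.05) and Ier2 (0.14 ± 0.06) in ASP+CGP vs CON.

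The median log2 fold change of the immediate early genes was −0.24 in ASP+CGP vs ASP and 0.21 in ASP vs CON, against 0.01 and −0.01 over all genes. The call of Fos in ASP vs CON was lost without the first or the second CON array or without the second or the third ASP array (adjusted p = 0.0885, 0.0616, 0.112 and 0.0878), and that of Egr1 without the second ASP array (adjusted p = 0.0703). In ASP+CGP vs ASP, Egr1 was lost without the second or the third ASP array or without the third ASP+CGP array (adjusted p = 0.092, 0.0529 and 0.0538). Of 9 measured glucocorticoid response genes, 1 rose in ASP vs CON (2.92% of all genes), 1 fell in ASP+CGP vs CON (0.919% of all genes) and 2 fell in ASP+CGP vs ASP (4.25% of all genes). Pdk4, a kinase that restrains glucose oxidation, rose by 0.89 ± 0.06 in ASP vs CON, and Pdk4 (−0.95 ± 0.06) and Nfkbia (−0.23 ± 0.04) fell in ASP+CGP vs ASP. Zbtb16 fell by 0.26 ± 0.05 in ASP+CGP vs CON, a call lost in 6 of 25 other settings. Among them was leaving out the first or the second CON array (limma, adjusted p = 0.0672 and 0.113). It was also lost in a fit of these 2 pools alone, unpaired (adjusted p = 0.242) or with arrays paired by number (adjusted p = 0.0829). In CGP vs CON none passed and 2 had an unadjusted p under 0.05 (11.6% of all genes). The largest values were those of Zbtb16 (−0.17 ± 0.05) and Klf9 (0.13 ± 0.12). Zbtb16 passed there without the third ASP+CGP array (adjusted p = 0.0498), and without the third CON array the difference of Klf9 was −0.00017. Fkbp5 and Sgk1, which glucocorticoids induce in brain, passed in no comparison.

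Markers of other tissues moved with the pools, and their part in the values of the clock genes, the immediate early genes and the glucocorticoid response genes was not tested. In ASP vs CON, 9 of 9 adrenal cortex, 6 of 6 adrenal medulla and 7 of 7 exocrine pancreas markers rose (2.92% of all genes). So did 7 of 7 adipose and 8 of 8 pituitary markers. The same numbers fell in ASP+CGP vs ASP (4.25% of all genes). These are the comparisons in which immediate early genes and Pdk4 rose and fell. The lists were chosen with earlier results of these data known. The study had already reported genes such as Star, Cyp11b1, Fabp4 and Prl as raised in ASP. The log2 of the summed signals of the adrenal cortex markers was 10.30 to 10.34 on the ASP+CGP arrays, 14.27 to 14.29 on the ASP arrays, 10.33 to 10.38 on the CGP arrays and 10.30 to 10.35 on the CON arrays. Adipose markers summed to 9.57 to 9.65 on the ASP+CGP arrays, 12.60 to 12.66 on the ASP arrays, 9.56 to 9.67 on the CGP arrays and 9.52 to 9.58 on the CON arrays. Adrenal medulla and exocrine pancreas markers were likewise highest in ASP, at 13.52 to 13.57 and 11.83 to 11.86, with at most 13.06 and 9.83 on all other arrays.

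Pituitary markers summed to 12.07 to 12.27 on the ASP+CGP arrays, 15.17 to 15.18 on the ASP arrays, 15.00 to 15.03 on the CGP arrays and 14.14 to 14.21 on the CON arrays. Of 6 cerebellar granule cell markers, 4 rose in ASP+CGP vs CON (0.826% of all genes), namely Cbln3 (0.74), Neurod1 (0.63), Gabra6 (0.54) and Zic1 (0.41). Zic1 was the 1 that rose in ASP vs CON (2.92% of all genes) and in CGP vs CON (0.489% of all genes). In CGP vs CON, Cbln3 had −0.09, Neurod1 0.31 and Gabra6 0.01, and none of these passed. The sums were 12.24 to 12.35 in ASP+CGP, 12.17 to 12.20 in ASP, 12.26 to 12.29 in CGP and 12.01 to 12.13 in CON. Cbln1 and Zic1, the brightest of the list, weigh most in them. Of 6 choroid plexus markers, 2 rose in each pool against CON (0.826% of all genes for ASP+CGP, 2.92% for ASP and 0.489% for CGP). Their sums were 12.52 to 12.71 in ASP+CGP, 12.79 to 12.82 in ASP, 12.52 to 12.56 in CGP and 12.12 to 12.29 in CON. The study had already reported Cbln3, Neurod1 and Ttr as raised in ASP+CGP. The clock genes themselves summed to 13.29 to 13.45 on the ASP+CGP arrays, 13.42 to 13.47 on the ASP arrays, 13.41 to 13.46 on the CGP arrays and 13.40 to 13.43 on the CON arrays, so that all pools overlapped.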

How the data were processed

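Hypothalamic RNA, pooled per group, was hybridized to 12 arrays. Each deposited value is the log2 signal of a probe set on an array, made by the authors in Partek by RMA (background correction, quantile normalization over arrays and median polish of the probes). Quantile normalization removes a shift shared by most genes, and background compresses the fold changes of dim genes. The number of arrays limits the precision. Of 29149 probe sets, the 19019 with 1 symbol in the platform annotation were considered, and a signal of 6 or more was required on 3 arrays or more. Where a gene had several probe sets, that of highest mean signal stood for it, which gave 17186 genes. Array medians lay between 8.28 and 8.34, and arrays of a pool correlated at 0.992 to 0.997. Limma 3.58.1 in R 4.3.3 was fitted with a mean per pool to all 12 arrays (8 residual and 5.43 prior degrees of freedom), with Benjamini-Hochberg adjustment within each comparison over all genes; "passed", "rose" and "fell" mean an adjusted p under 0.05. Errors after ± are SDs over arrays for signals and SEs of the fit for fold changes. Promoter windows were taken from RefSeq.

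The clock genes and the lists were chosen with earlier results of these data known. All 10 clock genes were tested in every comparison and are described by name, but not all of their fold changes are printed. From other clock lists and the lists of inducible genes, up to 4 genes that passed with the largest change are named, or some of the largest values where none did. Marker lists of other tissues are given as counts and sums, with some of their genes named. A sum is the log2 of the summed linear signals of a list on an array, so that its brightest genes weigh most. Arntl, Vip, Fkbp5 and Sgk1 were added for their roles after their values were seen. The limma test was checked on simulated data. Same-numbered arrays of ASP+CGP and CON deviated together in all 3 pairs (correlation of deviations over genes 0.17 to 0.541), though the labels do not say what a number marks, and no other 2 pools did so in all 3 pairs. Alternatives were other signal filters, probe set rules, normalizations, moderation, adjustment, the 2 groups alone, the replicate number as a block, and arrays left out.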

Additional observations from a re-analysis of the deposited data

Results flagged for a closer look

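No clock gene met a criterion for a closer look, and with 3 arrays a pool was too small for a test of single arrays that lie far from the others. Of the 52 measured genes of the other clock, suprachiasmatic nucleus, immediate early and glucocorticoid response lists, 6 (4.01% of all genes) had a difference between ASP and CON that was not the same with CGP as without it, by the interaction term in limma, coded as (ASP+CGP minus CGP) minus (ASP minus CON). On the log2 scale it was −0.79 for Nr4a1 (adjusted p = 0.000645), −0.52 for Btg2 (adjusted p = 0.000288), −0.42 for Fos (adjusted p = 0.00202) and −0.33 for Egr1 (adjusted p = 0.0279), all immediate early genes. The call of Egr1 was lost in 10 of 23 other settings, among them leaving out the first or the third CON array, any CGP array, or the second or the third ASP array (adjusted p = 0.0514 to 0.0844). It was −0.84 for Pdk4 (adjusted p = 1.95e-05) and 0.30 for Avp (adjusted p = 0.0144), whose level was below that of CON in each pool. Markers of other tissues passed with a negative interaction too (2.78% of all genes). They were 9 of 9 of the adrenal cortex, 6 of 6 of the adrenal medulla and 7 of 7 of the exocrine pancreas. A further 7 of 7 were of adipose tissue, 8 of 8 of the pituitary and 5 of 9 of the thalamus and habenula. Among them were −5.97 for Cyp11b1, −3.89 for Fabp4, −3.69 for Gh and −3.17 for Pomc (limma, adjusted p = 1.77e-14, 3.17e-11, 2.44e-14 and 3.04e-13). Their part in the values of the 6 genes was not tested. The marker lists were chosen with earlier results of these data known.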

How the results depend on the processing

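The 10 clock genes passed in no comparison under any of 25 alternatives. Over 1200 values of single clock genes the adjusted p ran between 0.0542 (Per1, ASP+CGP vs ASP, after further quantile normalization, −0.15) and 0.999, and 48 values had the opposite sign, the largest of them Bhlhe41 in ASP+CGP vs CON (−0.08 with all arrays, 0.0026 without the third arrays of CON and ASP+CGP). Of 28 calls of other listed genes, 10 were lost with at least 1 of the single arrays left out and 9 under at least 1 other setting, 11 in all, and the cause was not tested. Counts over all genes moved more, for example 142 genes higher in ASP+CGP vs CON became 26 in a fit of the 2 groups alone and 435 with the third array of both CON and ASP+CGP left out, and 459 higher in ASP+CGP vs ASP became 868 with arrays centred on the median. Genes lower in ASP vs CON were 200 with all arrays and 87 without the third ASP array. No scaling moved the median of all genes by 0.1. With the replicate number as a block, 0 clock genes passed in each comparison. Deviations of same-numbered arrays correlated at 0.17, 0.256 and 0.541 between ASP+CGP and CON and at −0.106 to 0.191 between other pools, so that the numbers were taken to pair the arrays of ASP+CGP and CON alone. With the number as a block in a fit of these 2 pools, an alternative chosen after seeing the data, 0 clock genes passed. In that fit 66 genes were higher and 78 lower, against 26 and 42 in these 2 pools without the block. With all arrays and no block the counts were 142 and 158. Zbtb16 was lost in limma in these 2 pools both with the block (adjusted p = 0.0829) and without it (adjusted p = 0.242). Against the fit to all arrays, the fit with the block changed no other call of a listed gene in this comparison. A fit of the 2 groups alone gives no interaction or F test. For Dbp the 95% interval in ASP vs CON reached 1.33-fold, which bounds what 3 arrays a pool can show for it.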
